A study of Rattus norvegicus with 19 samples.

Results

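The Nr4a family consists of Nr4a1 (also called Nur77), Nr4a2 (Nurr1) and Nr4a3 (Nor1), and here it is described through the RNA of the 3 genes and of the transcriptionally active putative enhancers (TAPEs) around them. A TAPE is a stretch of open chromatin away from genes that carries RNA-seq reads on both strands, a sign of enhancer RNA (eRNA). All TAPEs with a centre up to 1 Mb from the start of an Nr4a gene were taken by distance alone. TAPEs themselves were defined by the authors with the reads of these same libraries. This gave 92 TAPEs out of 27538 in the series, of which 31 lay around Nr4a1, 16 around Nr4a2 and 45 around Nr4a3. Only 11 of the 92 had an average of 0.05 CPKM or more (reads per kilobase of TAPE and per 1 M reads of the library) and could be tested, against 1870 in the whole series.

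RNA was measured by strand-specific, ribosomal RNA-depleted total RNA-seq in primary neurons of Sprague-Dawley rats. The cells were taken on embryonic day 18 from cortex, hippocampus or striatum. After 11 days in vitro the cultures received vehicle (Neurobasal medium) or potassium chloride (KCl), which depolarizes neurons, for 1 h. There were 3 libraries for each region and treatment, apart from 4 for striatum vehicle, so that 19 libraries fell into 6 groups. The study's list of files gives the numbers for striatum the other way round, and the titles and treatment labels were followed here. The sample labels give 25 mM KCl, whereas the series text and the methods give 10 mM. Cortex vehicle 3 is cortical by its title but striatal by its tissue label and was grouped by its title. Across genes it correlated at 0.997 with the average of the remaining cortex vehicle libraries, against 0.962 with that of hippocampus vehicle and 0.943 with that of striatum vehicle. The labels say that the samples are biological ones but not which embryos or cultures they share, so p-values measure the spread between these samples.

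Libraries held 46.4 to 72.5 M reads, of which 47431 to 83272 lay in TAPEs. The cultures carried the markers of their regions. All 7 striatum markers with reads were highest in striatum, 4 of 5 cortex markers in cortex and 3 of 4 hippocampus markers in hippocampus. They were not pure neurons. Astrocyte markers summed to between 258 and 1974 RPM (reads of a gene per 1 M reads of the library) and oligodendrocyte lineage markers to between 166 and 489, both lowest in striatum, while microglia markers reached at most 0.63 RPM and endothelial markers at most 1.41. The part of these other cells in differences between regions was not tested. In such mixed cultures, fewer cells of a type and less RNA per cell cannot be told apart.

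NR4A proteins are orphan nuclear receptors, transcription factors whose ligand pocket is closed, so that the amount of protein made largely sets their activity. Their genes are immediate early genes: in neurons, calcium entry during depolarization acts through kinases on factors such as CREB, MEF2 and SRF that are already present, and transcription starts without new protein synthesis. In the brain the family is known for its part in hippocampal memory, and Nr4a2 for the development and upkeep of midbrain dopamine neurons.

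The promoters are shown first because CREB binds a short element, the cAMP response element, whose core reads TGACG, or on the opposite strand CGTCA, and can be looked for in them. RefSeq promoters on the GRCr8 assembly were at hand for Nr4a1 and Nr4a2, and the 250 bases before each start are printed 5′ to 3′ along the gene with that core in capitals. The Nr4a1 promoter is at chr7:134259888-134260137 on the plus strand and the Nr4a2 promoter at chr3:62104888-62105137 on the minus strand. Nr4a3 was not among the promoters at hand.
Nr4a1: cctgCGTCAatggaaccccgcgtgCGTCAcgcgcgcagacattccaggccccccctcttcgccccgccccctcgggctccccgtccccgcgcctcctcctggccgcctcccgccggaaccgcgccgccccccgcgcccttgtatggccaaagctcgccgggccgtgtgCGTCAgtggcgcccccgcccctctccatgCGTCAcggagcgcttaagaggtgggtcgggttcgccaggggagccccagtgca
Nr4a2: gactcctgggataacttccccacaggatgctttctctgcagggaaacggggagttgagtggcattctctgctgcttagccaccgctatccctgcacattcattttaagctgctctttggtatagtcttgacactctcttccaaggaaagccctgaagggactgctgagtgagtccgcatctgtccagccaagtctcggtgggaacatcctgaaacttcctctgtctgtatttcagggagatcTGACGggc
The Nr4a1 window held the core 4 times, with first bases at -246, -226, -82 and -53 from the start, and the Nr4a2 window held it at -8 only. On either strand, 18.2% of 33469 promoters held the core at least once and 0.173% held it 4 times or more. Each of the 4 copies in Nr4a1 lay within TGCGTCA, a longer word picked after the sequence was seen, which 1.66% of promoters held. The full element TGACGTCA, the NR4A binding site AAAGGTCA, the CArG box bound by SRF and TATAAA were in neither window, and 1.59%, 1.24%, 1.5% and 12.9% of promoters held them. The letters describe these windows only, and the RefSeq starts were not matched to the starts used for the TAPE distances, which are on the Rn6 assembly.

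All 3 genes rose with KCl in all 3 regions, and the size of the rise differed between regions in a different order for each gene. Nr4a1 rose least in striatum, Nr4a2 rose most in hippocampus, and Nr4a3 rose least in hippocampus. Gene values are RPM recovered from the deposited correlations (how is given with the processing), and since gene lengths as counted are not known, levels are compared between libraries and never between genes. Changes in reads are log2 fold changes from limma voom with standard errors (SE), over 11983 genes.

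**Figure D1:**
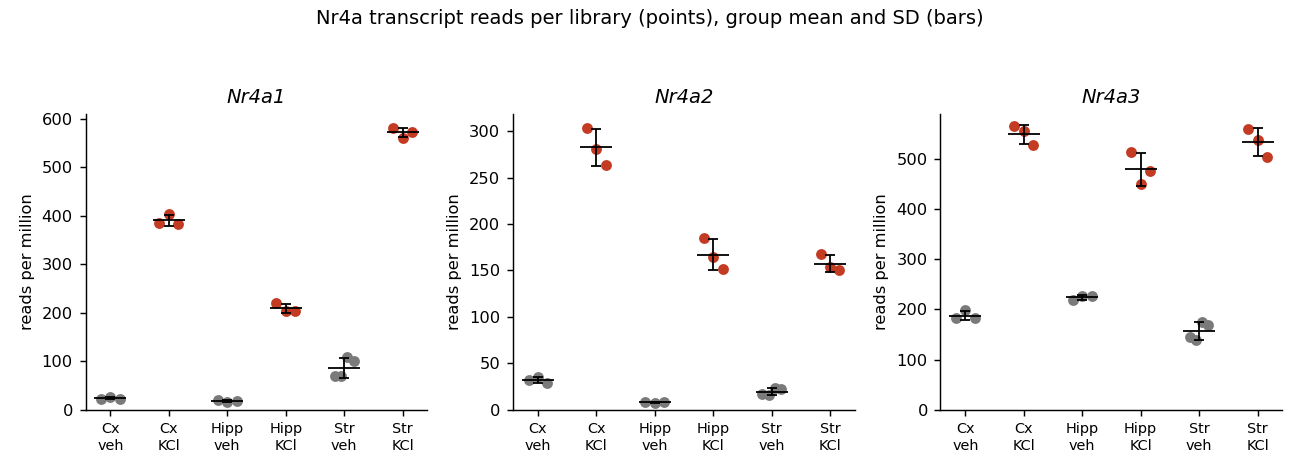
Reads per 1 M reads of the library (RPM, linear axis) of Nr4a1, Nr4a2 and Nr4a3 in each of the 19 libraries, with vehicle in grey and KCl in red for cortex (Cx), hippocampus (Hipp) and striatum (Str). Bars give the group mean and SD. Every KCl library lies above every vehicle library of its region, and the striatum vehicle libraries of Nr4a1, at 69.0 to 108, lie above those of cortex and hippocampus.

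Nr4a1 lies on the plus strand at chr7:142905758-142920216 (Rn6). In cortex it measured 22.8, 26.2 and 23.1 RPM in the vehicle libraries and 386, 403 and 382 in the KCl libraries. In hippocampus it measured 19.5, 16.6 and 18.5 with vehicle and 219.8, 203 and 203 with KCl. In striatum it measured 69.1, 69.0, 108 and 100.4 with vehicle and 581, 561 and 573 with KCl. The groups did not overlap in any region, and the vehicle libraries of striatum split into a lower and a higher pair. The rise was 4.02 (SE 0.0648, adjusted p = 3.82e-13) in cortex or 16.2-fold, 3.52 (SE 0.0654, adjusted p = 2.80e-17) in hippocampus or 11.5-fold, and 2.75 (SE 0.0797, adjusted p = 2.09e-20) in striatum or 6.70-fold. By log2 fold change it was the 10th gene in cortex, the 9th in hippocampus and the 17th in striatum. In these regions 5.37%, 13.2% and 28.5% of all genes tested passed.

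The smaller fold of Nr4a1 in striatum stood beside a higher level in vehicle. Striatum vehicle averaged 86.7 ± 20.6 RPM (SD, n = 4) against 24.0 ± 1.88 in cortex (SD, n = 3) and 18.2 ± 1.47 in hippocampus (SD, n = 3). The vehicle level in striatum was above that of cortex by 1.82 on the log2 scale (SE 0.142, adjusted p = 1.20e-09) and above that of hippocampus by 2.23 (SE 0.16, adjusted p = 2.77e-10), while cortex and hippocampus did not pass (0.41, adjusted p = 0.0739). Such differences between vehicle levels were common, with 69.2% of genes tested passing between striatum and cortex, 74.3% between striatum and hippocampus and 52.7% between cortex and hippocampus. After KCl, striatum was still the highest at 572 ± 10.2, followed by cortex at 390.3 ± 11.1 and hippocampus at 209 ± 9.52 (SD, n = 3 each), and these 3 ranges did not overlap.

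Nr4a2 lies on the minus strand at chr3:43111240-43119159. In cortex it measured 31.8, 35.4 and 28.6 RPM with vehicle and 304, 280.4 and 264 with KCl. In hippocampus it measured 7.83, 7.41 and 8.13 with vehicle and 185, 165 and 151 with KCl. In striatum it measured 16.7, 15.9, 22.9 and 22.1 with vehicle and 168, 154 and 150.4 with KCl. Treatments again did not overlap in any region. The rise was 3.15 (SE 0.0793, adjusted p = 1.39e-11) in cortex or 8.85-fold, 4.42 (SE 0.110, adjusted p = 1.86e-15) in hippocampus or 21.4-fold, and 3.03 (SE 0.0732, adjusted p = 4.65e-22) in striatum or 8.15-fold. In hippocampus Nr4a2 was the 3rd of all genes tested by log2 fold change.

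The vehicle levels of Nr4a2 were ordered cortex, striatum, hippocampus, at 31.9 ± 3.42 (SD, n = 3), 19.4 ± 3.63 (SD, n = 4) and 7.79 ± 0.366 RPM (SD, n = 3). Each step passed the test: striatum was below cortex by a log2 difference of -0.73 (adjusted p = 3.42e-06) and above hippocampus by 1.31 (adjusted p = 1.16e-07), and cortex was above hippocampus by 2.03 (adjusted p = 3.03e-10). With KCl, cortex reached 283 ± 20.2, and the values of hippocampus (167 ± 17.2) and striatum (157 ± 9.04; SD, n = 3 each) overlapped. The region with the least Nr4a2 RNA in vehicle was thus the one with the highest fold.

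Nr4a3 lies on the plus strand at chr5:63781801-63821637. In cortex it measured 183, 198 and 182 RPM with vehicle and 565, 555 and 527 with KCl. In hippocampus it measured 218, 227 and 227 with vehicle and 514, 449 and 475 with KCl. In striatum it measured 145, 139, 176 and 169 with vehicle and 559.5, 538 and 503 with KCl. Treatments did not overlap, but the KCl libraries of the 3 regions lay close to each other, at means of 549 ± 19.7, 479 ± 32.5 and 534 ± 28.4 (SD, n = 3 each). The rise was 1.55 (SE 0.0519, adjusted p = 2.30e-10) in cortex or 2.92-fold, 1.09 (SE 0.0431, adjusted p = 1.82e-12) in hippocampus or 2.14-fold, and 1.77 (SE 0.0490, adjusted p = 9.22e-21) in striatum or 3.40-fold.

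Vehicle levels of Nr4a3 spread less between regions than those of the other 2 genes, and were ordered hippocampus (224 ± 4.84; SD, n = 3), cortex (188 ± 9.02; SD, n = 3) and striatum (157 ± 17.9; SD, n = 4). Cortex was below hippocampus by a log2 difference of -0.26 (adjusted p = 0.00247), striatum below cortex by -0.26 (adjusted p = 0.00103) and striatum below hippocampus by -0.51 (adjusted p = 4.05e-07). Fitted over all libraries with region as a covariate, the KCl effect was 3.28 for Nr4a1 (SE 0.131, adjusted p = 1.57e-15), 3.37 for Nr4a2 (SE 0.126, adjusted p = 4.81e-16) and 1.48 for Nr4a3 (SE 0.0674, adjusted p = 1.58e-14), in a fit where 33.7% of genes passed.

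The test of the difference itself, an F-test of the interaction of KCl with region, passed for all 3 genes, with an adjusted p of 8.35e-06 for Nr4a1, 8.16e-06 for Nr4a2 and 2.48e-05 for Nr4a3, where 3.72% of genes passed. For Nr4a1 the KCl effect in striatum was below that of cortex by a log2 difference of -1.27 (95% interval -1.58 to -0.96, adjusted p = 3.42e-06) and below that of hippocampus by -0.78 (interval -1.12 to -0.43, adjusted p = 0.00726). For Nr4a2 the effect in hippocampus stood out, with striatum below it by -1.39 (interval -1.75 to -1.03, adjusted p = 1.07e-05) and cortex below it by -1.27 (interval -1.63 to -0.92, adjusted p = 2.45e-05). For Nr4a3 hippocampus was the lowest, with striatum above it by 0.67 (interval 0.49 to 0.85, adjusted p = 1.36e-05) and cortex above it by 0.45 (interval 0.27 to 0.63, adjusted p = 0.00279). These pairs passed for 2.34% (striatum and cortex), 2.04% (striatum and hippocampus) and 2.12% (cortex and hippocampus) of genes tested.

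The remaining pairs did not pass. Cortex and hippocampus differed by 0.50 for Nr4a1 (interval 0.12 to 0.88, adjusted p = 0.225), striatum and cortex by -0.12 for Nr4a2 (interval -0.39 to 0.16, adjusted p = 0.819) and by 0.22 for Nr4a3 (interval 0.04 to 0.40, adjusted p = 0.259). Without cortex vehicle 3, the library with conflicting labels, the rises in cortex were 3.99 for Nr4a1, 3.07 for Nr4a2 and 1.52 for Nr4a3, and all 3 still passed. The planned test without a scale, an exact two-sided permutation of treatment within regions on each gene's standardised profile, gave p = 7.14e-05 for each gene, the smallest that 14000 arrangements allow (adjusted p = 0.0018), with 21.8% of the 16124 profiles passing. In it KCl exceeded vehicle by 1.73 SD of the profile for Nr4a1, 1.83 for Nr4a2 and 1.94 for Nr4a3.

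**Figure D2:**
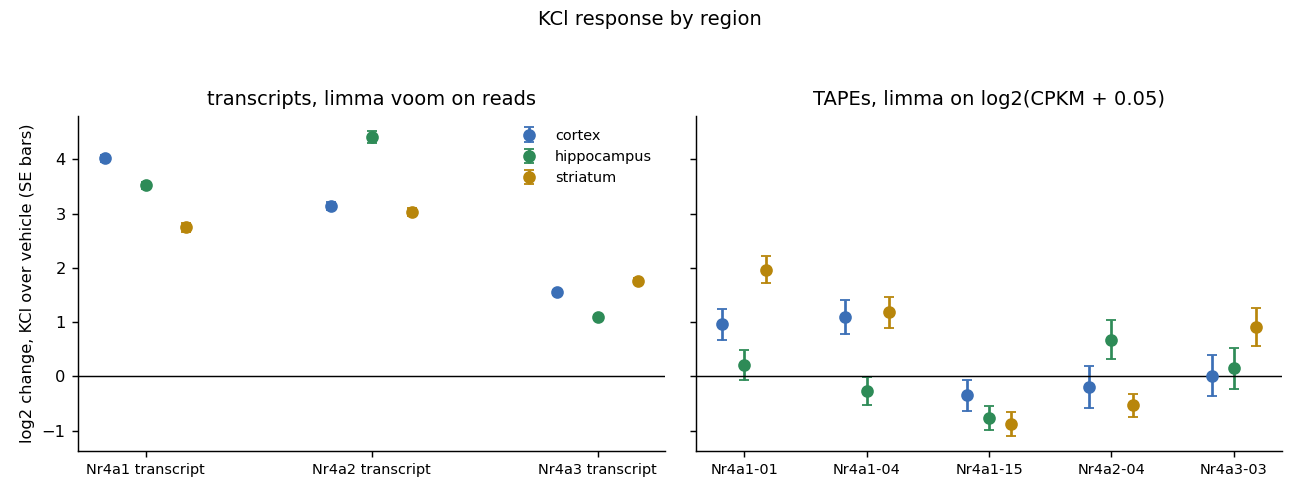
Log2 change of KCl over vehicle with SE bars, for the reads of the 3 genes (left, limma voom) and for 5 TAPEs near them (right, limma on log2(CPKM + 0.05)). The genes rose in each region, with the smallest rise of Nr4a1 in striatum (2.75), the largest of Nr4a2 in hippocampus (4.42) and the smallest of Nr4a3 in hippocampus (1.09), and the TAPE Nr4a1-01 has its highest value, 1.97, in striatum.

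The family moved with other activity-regulated genes, but each member was closest to different ones. Over the 19 libraries, the genes whose reads followed Nr4a1 most closely were Npas4 (Pearson r = 0.996), Fosb (0.994), Rheb (0.988), Arc (0.987) and Fos (0.985). Fos and Fosb encode AP-1 subunits, Npas4 a transcription factor induced by calcium, Arc a protein of synaptic receptor trafficking and Rheb the GTPase that activates mTORC1. For Nr4a2 they were Cwc25 (0.99), Csrnp1 (0.984), Btg2 (0.982), Slc1a4 (0.981) and Dgcr6 (0.978), and for Nr4a3 Irs2 (0.99), Erf (0.978), Tent5b (0.974), Egr3 (0.973) and Trib1 (0.973). Among these, Cwc25 is a splicing factor, Btg2 an antiproliferative protein, Slc1a4 an amino acid transporter, Irs2 an insulin receptor substrate and Erf a repressor of the ETS family. Between members the r was 0.927 for Nr4a2 with Nr4a3, 0.872 for Nr4a1 with Nr4a3 and 0.766 for Nr4a1 with Nr4a2. The libraries split by treatment and region, so these r values describe likeness over 6 groups and carry no p.

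Beside the family, all 16 listed early response genes rose in each region. Of all 11983 genes tested, 556 rose in cortex, 574 in hippocampus and 959 in striatum. The medians of the 16 were 3.55 (cortex), 1.93 (hippocampus) and 2.89 (striatum), where the medians of all genes were -0.04, -0.04 and -0.06. Fosb rose by 6.01, 6.07 and 3.71 (adjusted p = 1.68e-12, 7.63e-16 and 6.41e-21 for cortex, hippocampus and striatum). Its striatal rise was again the smallest, next to a higher vehicle level of 35.7 RPM against 4.79 in cortex and 2.89 in hippocampus. Arc rose by 5.39, 1.97 and 3.75 (adjusted p = 1.34e-11, 1.81e-12 and 1.40e-24). Egr1, a zinc finger factor, rose by 2.90, 0.81 and 2.91 (adjusted p = 4.23e-11, 9.20e-10 and 4.65e-22).

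Among 12 tested regulators known to act upstream of the NR4A genes, 3 rose and 0 fell in cortex, 2 rose and 3 fell in hippocampus, and 4 rose and 4 fell in striatum, where 5.37%, 13.2% and 28.5% of all genes tested passed in either direction. Crem, which encodes CREB-family activators and repressors from several promoters, rose by 2.69, 1.9 and 1.28 (adjusted p = 1.71e-09, 5.03e-11 and 3.53e-16), from 13.8 to 90.3 RPM in cortex. Srf rose by 0.71, 0.28 and 0.81 (adjusted p = 8.89e-06, 0.00295 and 4.74e-13). Mef2d rose by 0.48 in cortex (adjusted p = 9.68e-05) and 0.15 in striatum (adjusted p = 0.0056), with -0.06 in hippocampus (adjusted p = 0.544). Creb1 itself fell by 0.45 in striatum (adjusted p = 1.17e-06), and its coactivator Crtc3 fell by 0.50 in hippocampus (adjusted p = 0.00113) and by 0.38 in striatum (adjusted p = 0.000142).

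Among partners and co-regulators of the receptors, 0 of 7 tested passed in cortex with limma voom (0 at an unadjusted p under 0.05) against 5.37% of all genes, and 1 of 7, Rxrg, in striatum against 28.5%. Rxrg, a retinoid X receptor that can pair with Nr4a1 and Nr4a2, fell by 0.20 in hippocampus (adjusted p = 0.0471) and by 0.25 in striatum (adjusted p = 0.00922). Of 10 genes that Nr4a2 is known for in dopamine neurons, only Ddc, Ret and Aldh1a1 were tested with limma voom. In each region 0 of them passed (0 at an unadjusted p under 0.05). Th, Slc18a2, Pitx3 and Spp1 were under the filter. Th, the rate-limiting enzyme of dopamine synthesis, averaged between 0.193 and 0.526 RPM in the 6 groups. No reads could be recovered for Slc6a3, Foxa2, Vip, Ep300, Rcor1 and Ncoa1. This says nothing about their levels, and they are not analysed here.

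The 3 loci differ in how TAPEs lie around the gene. Around Nr4a1, 20 TAPEs lay before the start and 11 past it, and 8 were within 100 kb. Around Nr4a2, 10 lay before and 6 past the start with 4 within 100 kb, and around Nr4a3, 35 lay before and 10 past the start with 3 within 100 kb. No TAPE lay inside a gene of the family. TAPEs are named here by gene and rank of distance, so that Nr4a1-01 is the TAPE nearest to the start of Nr4a1, at 14772 bp, against 24696 bp for Nr4a2-01 and 42543 bp for Nr4a3-01. Distances run from the start to the TAPE centre, and all 3 of these TAPEs lie before the start.

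Most of these TAPEs were shallow. Summed over the 19 libraries, the median TAPE held 14 reads around Nr4a1 (range 3 to 1002), 14.5 around Nr4a2 (3 to 138) and 31 around Nr4a3 (2 to 439), and 17, 12 and 16 TAPEs held under 20 reads. The mates of a pair were mostly counted as 2 reads, so that 85273 values in the series were of exactly 2 reads and 22533 of exactly 1. The 11 tested TAPEs are 5 around Nr4a1, 1 around Nr4a2 and 5 around Nr4a3, and the other 81 are given as values only.

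**Figure D3:**
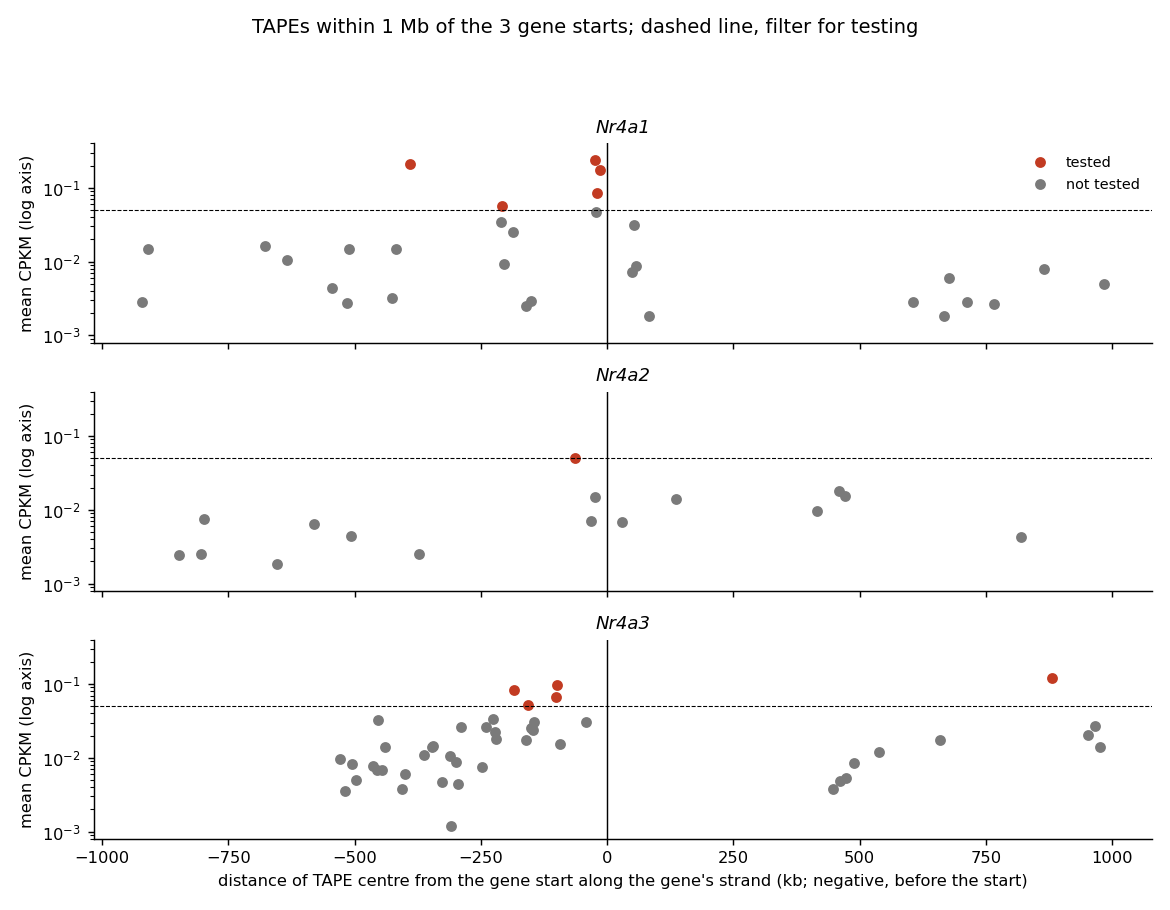
Mean CPKM over the 19 libraries (log axis) of the 92 TAPEs against distance from the start of Nr4a1, Nr4a2 or Nr4a3 in kb, negative before the start. Red points pass the filter for testing, drawn as a dashed line at 0.05 CPKM. Around Nr4a1 3 of the 5 tested TAPEs crowd within 100 kb before the start, around Nr4a2 there is 1 tested TAPE, and around Nr4a3 there is 1 tested TAPE within 100 kb.

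The deposited r, a Pearson correlation between the CPKM of a TAPE and of a gene over 19 libraries, is given here as a description. Around Nr4a1 the r exceeded 0.5 for 5 TAPEs, and 4 of them are the 4 nearest to the gene, at 0.882, 0.576, 0.647 and 0.743 in order of distance. The remaining one, Nr4a1-24, held 12 reads. Around Nr4a2 the r exceeded 0.5 for 3 TAPEs, Nr4a2-01, Nr4a2-11 and Nr4a2-13, with 37, 15 and 19 reads. Around Nr4a3 it did so for none, and the highest was 0.404 (Nr4a3-03). How many of all pairs in the series exceed 0.5 was not counted, so these counts show no difference from other genes. Medians over all TAPEs of a locus were near 0, at -0.032, 0.0859 and 0.0753. Each TAPE was paired with every gene in reach, up to 52 for the cluster before Nr4a1, and the points behind each r share libraries that split by treatment and region.

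Nr4a1-01 (chr7:142890056-142891915, 352 reads) had the largest KCl change of the 11 tested TAPEs on the log2(CPKM + 0.05) scale. Nr4a1 is both its nearest gene and, of 52 paired genes, the one with the highest r. The study's list of guides places both of its Nr4a1 enhancer guides inside this TAPE on Rn6. They are printed to identify the element, together with the primer pair that the study names for Nr4a1 eRNA, whose position was not checked, and no site within them is marked.
Nr4a1 enhancer guide 1: gtgtgtggaaacttgtagcg
Nr4a1 enhancer guide 2: cgggctccctgcggattgcg
Nr4a1 eRNA forward primer: tggaatctgacaccggagga
Nr4a1 eRNA reverse primer: atgcgtggttgacaaagtgc
In striatum its CPKM was 0.0852, 0.0650, 0.0649 and 0.0743 with vehicle and 0.406, 0.317 and 0.598 with KCl. In cortex it was 0.155, 0.104 and 0.0719 with vehicle and 0.220, 0.298 and 0.252 with KCl. In hippocampus it was 0.0951, 0.102 and 0.0779 with vehicle and 0.122, 0.0758 and 0.152 with KCl. Treatments did not overlap in striatum and cortex, and overlapped in hippocampus. On the log2(CPKM + 0.05) scale, where changes of TAPEs with low values come out too small, Nr4a1-01 rose by 1.97 in striatum (SE 0.250, adjusted p = 0.00192), where it was the only one of the 11 tested TAPEs to pass and 1.23% of all tested TAPEs passed.

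The cortex value of Nr4a1-01 was 0.96 (SE 0.286, adjusted p = 0.207) and the hippocampus value 0.21 (SE 0.280, adjusted p = 0.766), neither of which passed. In cortex 0 of the 11 passed with limma on log2(CPKM + 0.05) against 0.321% of all tested TAPEs, with 2 at an unadjusted p under 0.05. In hippocampus 0 of 11 passed against 0.0535% of all, with 1 at an unadjusted p under 0.05, and limma voom on the TAPE reads called 0 in both regions too. In striatum limma voom called 3, adding Nr4a1-04 and Nr4a1-15. Over all libraries the rise was 1.09 (SE 0.201, adjusted p = 0.00102). The interaction with region passed for 0 of the 11 with either method, against 0.0535% of all tested TAPEs, with 3 at an unadjusted p under 0.05. For Nr4a1-01 its unadjusted p was 0.000327 and its adjusted p 0.153, and striatum exceeded hippocampus by 1.75 (95% interval 0.97 to 2.53, adjusted p = 0.0726). The striatal call rests in part on striatum KCl 7, the highest library, since without it the rise was 1.75 with an adjusted p of 0.0679.

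In each region the reads behind these values were few: 30 reads over the 4 striatum vehicle libraries and 130 over the 3 striatum KCl libraries for Nr4a1-01, 41 and 84 in cortex, and 29 and 38 in hippocampus. In vehicle, Nr4a1-01 was not detectably different between regions, with 0.110 ± 0.0420 CPKM in cortex (SD, n = 3), 0.0916 ± 0.0123 in hippocampus (SD, n = 3) and 0.0724 ± 0.00961 in striatum (SD, n = 4), and adjusted p of 0.393 for striatum with cortex and 0.609 for striatum with hippocampus. The gene itself was 1.82 and 2.23 higher in striatum vehicle than in cortex and hippocampus.

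**Figure D4:**
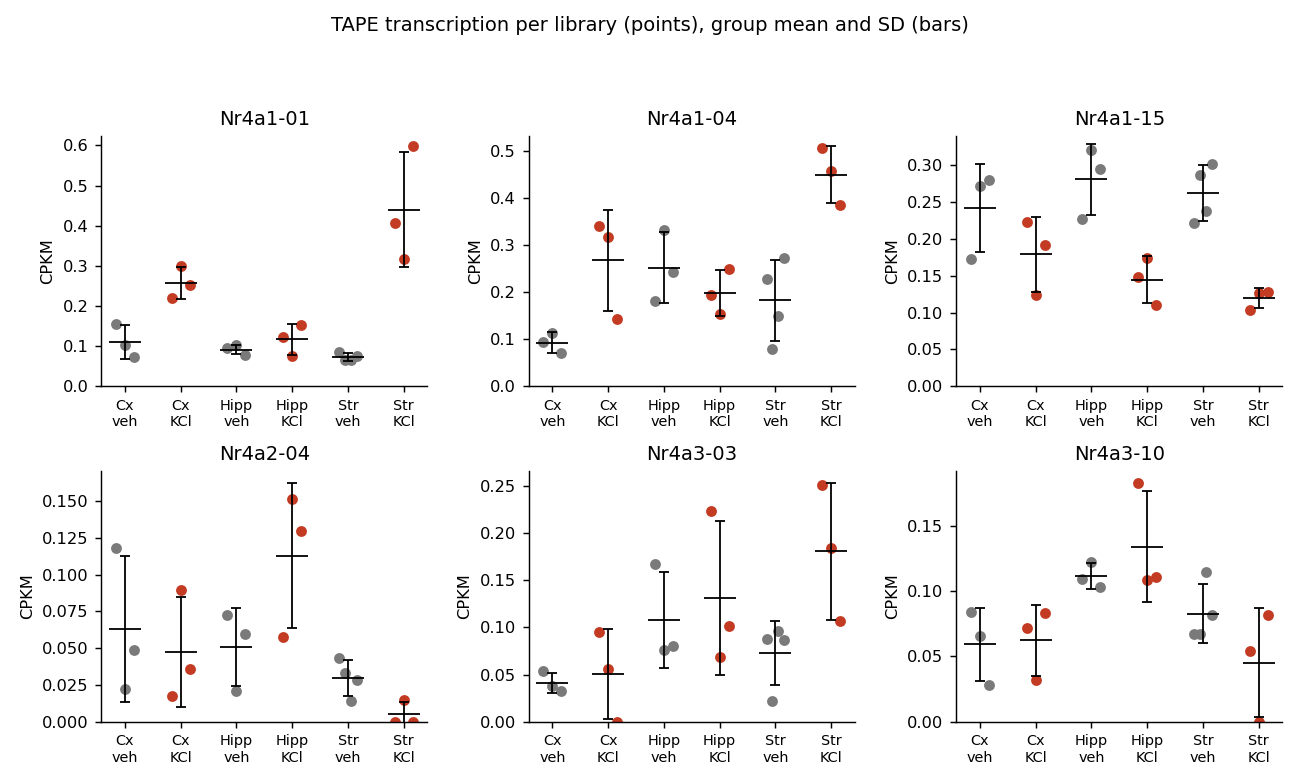
CPKM (linear axes, each from 0) of 6 TAPEs in each library, with vehicle in grey and KCl in red for cortex (Cx), hippocampus (Hipp) and striatum (Str); bars give the group mean and SD. Nr4a1-01 reaches 0.317 to 0.598 in striatum KCl against 0.0649 to 0.0852 in striatum vehicle, Nr4a1-15 is lower with KCl in hippocampus and striatum, and Nr4a2-04 is lowest in striatum KCl.

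Nr4a1-04 (chr7:142879678-142882218, 24810 bp before the start, 645 reads) rose over all libraries by 0.69 (SE 0.207, adjusted p = 0.0382). In cortex its CPKM was 0.0947, 0.114 and 0.0701 with vehicle and 0.339, 0.318 and 0.144 with KCl. In striatum it was 0.229, 0.0793, 0.149 and 0.272 with vehicle and 0.505, 0.457 and 0.385 with KCl, and in hippocampus 0.181, 0.332 and 0.242 with vehicle and 0.193, 0.153 and 0.249 with KCl. KCl libraries lay above vehicle in cortex and striatum and among them in hippocampus. Within regions the changes were 1.09 (adjusted p = 0.207), 1.18 (adjusted p = 0.0663) and -0.27 (adjusted p = 0.671) for cortex, striatum and hippocampus, and none passed, while limma voom on its reads gave 1.38 in striatum (adjusted p = 0.00357).

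The call of Nr4a1-04 is a weak one. It was lost without cortex vehicle 1 (adjusted p = 0.0555), cortex vehicle 3 (0.0789), cortex KCl 1 (0.0708), cortex KCl 2 (0.0733), striatum vehicle 4 (0.0664), striatum vehicle 6 (0.0618), striatum KCl 1 (0.0803), striatum KCl 5 (0.0766) or striatum KCl 7 (0.0592). Its interaction with region had an adjusted p of 0.337. Nr4a1-02, 20171 bp before the start, had 0.57 over all libraries (adjusted p = 0.0725).

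Another gene bounds this cluster. Grasp, named after its values were seen, encodes a scaffold protein of synaptic receptors, lies on the plus strand at chr7:142869752-142878347 and ends 1331 bp before Nr4a1-04 and 11709 bp before Nr4a1-01. Of the 52 genes paired with Nr4a1-04 it had the highest r, 0.874, with Nr4a1 second at 0.743. Its RPM were 3.94, 3.54 and 3.94 in cortex vehicle and 8.60, 7.47 and 7.05 in cortex KCl. In hippocampus they were 4.99, 6.36 and 4.89 with vehicle and 6.14, 5.47 and 5.36 with KCl, and in striatum 3.8, 4.27, 5.42 and 6.05 with vehicle and 13.1, 13.6 and 12.2 with KCl. Grasp rose by 1.00 in cortex (SE 0.125, adjusted p = 0.000146) and by 1.42 in striatum (SE 0.111, adjusted p = 9.93e-11), with 0.07 in hippocampus (SE 0.126, adjusted p = 0.785), and its interaction with region passed (adjusted p = 5.14e-05). In cortex and striatum the direction is thus the one seen at Nr4a1-01 and Nr4a1-04. In hippocampus Grasp changed by 0.07, Nr4a1-01 by 0.21 and Nr4a1-04 by -0.27, none of which passed. The part of transcription running on from Grasp in the reads of these TAPEs was not tested.

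**Figure D5:**
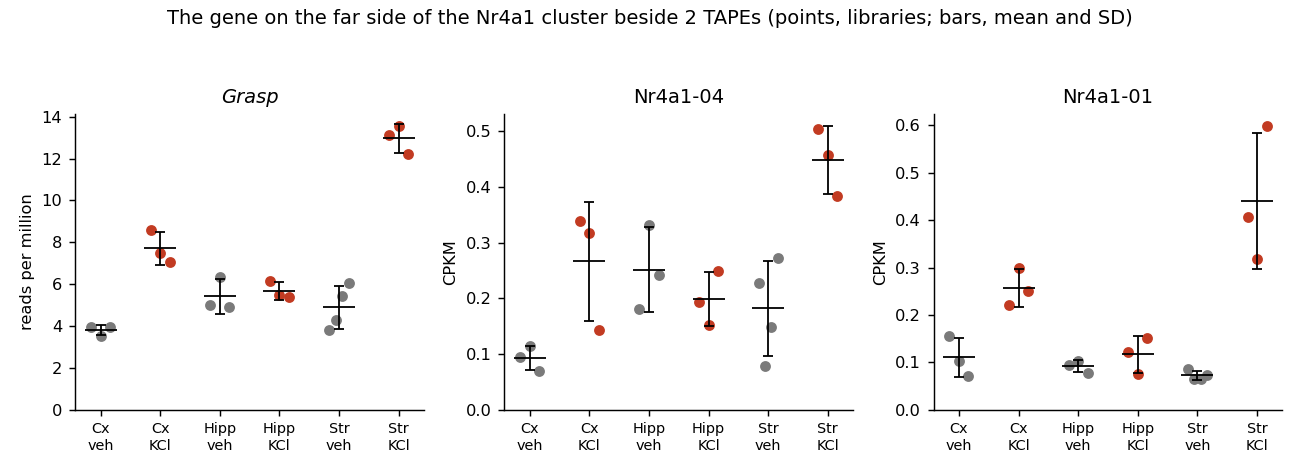
RPM of Grasp (left) and CPKM of Nr4a1-04 and Nr4a1-01, on linear axes from 0, in each library of cortex (Cx), hippocampus (Hipp) and striatum (Str), vehicle in grey and KCl in red; bars give mean and SD. In all 3 panels the striatum KCl libraries are the highest, at 12.2 to 13.6 RPM for Grasp, and the hippocampus KCl libraries overlap with or lie close to vehicle.

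Nr4a1-15 (chr7:142513284-142517644, 390294 bp before the start) went the other way. It was the deepest TAPE of the family with 1002 reads, Scn8a is its nearest gene, and its r with Nr4a1, -0.749, was the lowest of the 39 genes it was paired with. In hippocampus its CPKM was 0.227, 0.320 and 0.295 with vehicle and 0.148, 0.174 and 0.111 with KCl. In striatum it was 0.222, 0.286, 0.237 and 0.301 with vehicle and 0.104, 0.127 and 0.127 with KCl, and in cortex 0.173, 0.272 and 0.279 with vehicle and 0.222, 0.123 and 0.191 with KCl. Treatments did not overlap in hippocampus and striatum and overlapped in cortex. Over all libraries it fell by 0.67 (SE 0.147, adjusted p = 0.00394), a call that no single left-out library ended. Within striatum the change was -0.87 (adjusted p = 0.0748, and 0.0112 with limma voom on its reads), and within hippocampus -0.77 (adjusted p = 0.238).

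With these, 3 of the 11 tested TAPEs passed over all libraries, where 6.84% of all tested TAPEs did, and all 3 lie around Nr4a1. The median log2 change of the TAPEs tested was below 0, -0.09 in cortex, -0.16 in hippocampus, -0.17 in striatum and -0.13 over all libraries. With each library centred on its median, Nr4a1-15 fell by 0.54 (adjusted p = 0.0256). The 5 tested TAPEs around Nr4a1 had a median of 0.57 over all libraries, the 5 around Nr4a3 a median of 0.27, and the tested TAPE of Nr4a2 measured -0.04. The median of Nr4a3 is the value of Nr4a3-08, which averaged 0.0523 CPKM and only 0.0464 without striatum KCl. It reached the filter through that group, so this median supports nothing here.

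Summed over the 8 TAPEs within 100 kb of Nr4a1, RPM ran from 0.624 to 0.827 in cortex vehicle and from 1.16 to 1.9 in cortex KCl, and from 0.504 to 1.20 in striatum vehicle and 2.14 to 2.57 in striatum KCl. In hippocampus they ran from 0.99 to 1.27 with vehicle and 0.758 to 1.15 with KCl. The sum did not overlap between treatments in cortex and striatum and overlapped in hippocampus, although the Nr4a1 gene rose 11.5-fold there. Over all 31 TAPEs the hippocampus sum was 2.58 to 3.13 with vehicle and 1.80 to 2.20 with KCl, so that KCl lay below vehicle there, with Nr4a1-15 alone going from 208 to 109 reads. In striatum it was 2.17 to 2.76 with vehicle and 3.02 to 3.56 with KCl, and in cortex the treatments overlapped, at 1.73 to 2.44 and 2.34 to 3.30. Reads in all TAPEs of the series made up 0.1027% to 0.1141% of the hippocampus vehicle libraries and 0.0932% to 0.1033% of the hippocampus KCl libraries.

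The sums over the other loci moved by region in their own way. Over the 16 TAPEs of Nr4a2 they ran from 0.138 to 0.481 RPM in cortex vehicle and 0.482 to 0.560 in cortex KCl, from 0.362 to 0.424 and 0.385 to 0.652 in hippocampus, and from 0.190 to 0.246 and 0.0383 to 0.151 in striatum. KCl thus lay above vehicle in cortex, overlapped with it in hippocampus and lay below it in striatum, where the Nr4a2 gene rose 8.15-fold. These striatum sums rest on 10 to 14 reads per vehicle library and 2 to 8 per KCl library. Reads in all TAPEs of the series were also lower with KCl in striatum. They made up 0.110% to 0.116% of the vehicle libraries and 0.0983% to 0.102% of the KCl libraries. Within 100 kb of Nr4a2, where 4 TAPEs lay, neither separation of its sums held: they were 0.0827 to 0.337 and 0.215 to 0.269 in cortex, 0.155 to 0.248 and 0.14 to 0.476 in hippocampus, and 0.0345 to 0.176 and 0 to 0.0755 in striatum, for vehicle and KCl. Over the 45 TAPEs of Nr4a3 they ran from 1.23 to 2.03 in cortex vehicle and 2.13 to 2.57 in cortex KCl, from 2.48 to 2.69 and 2.20 to 3.41 in hippocampus, and from 1.43 to 1.81 and 1.17 to 1.84 in striatum, overlapping in the last 2 regions. Over the 3 TAPEs within 100 kb of Nr4a3 it was striatum that separated, with 0.0403 to 0.194 for vehicle and 0.211 to 0.491 for KCl, while cortex (0.128 to 0.371 and 0.175 to 0.286) and hippocampus (0.217 to 0.407 and 0.283 to 0.63) overlapped. The order of the treatments thus depended on the window, and these sums were not tested.

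Around Nr4a2 the reads were few. Nr4a2-01 (chr3:43142735-43144976), whose highest-r gene of 4 is Nr4a2 (r = 0.612), held 37 reads and was not tested. It had 17 reads over the cortex KCl libraries and 2 over cortex vehicle, 8 and 8 in hippocampus, and 2 and 0 in striatum, for KCl and vehicle. Its CPKM was 0.0577, 0.0225 and 0.0522 in cortex KCl and 0, 0.0123 and 0 in cortex vehicle, so that the cortex groups did not overlap. Nr4a2-13 (chr3:43916556-43918829, 798533 bp before the start), with the highest r of the locus at 0.707, rests on 19 reads, of which 15 are in cortex KCl, 2 in cortex vehicle and 2 in hippocampus KCl. Nr4a2-08 (chr3:42659138-42660913, 459133 bp past the start, 35 reads), named after its values were seen, was high in hippocampus KCl instead. Its CPKM was 0.0985, 0.0596 and 0.0469 there and 0, 0 and 0.0204 in hippocampus vehicle, or 21 against 2 reads without overlap. It held 2 and 2 reads in cortex and 2 and 6 in striatum, for KCl and vehicle. None of these 3 TAPEs reached the filter, so they were not tested. How many TAPEs of the series separate in this way was not counted. Nr4a2-08 was picked for its values, so its separation supports nothing here.

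Nr4a2-04 (chr3:43181916-43184359, 63979 bp before the start, 138 reads) was the tested TAPE of the locus. Its r with Nr4a2 was 0.0631, and its r with Gpd2, the highest of its 5 paired genes, was 0.595. In hippocampus its CPKM was 0.0724, 0.0211 and 0.0593 with vehicle and 0.0573, 0.152 and 0.130 with KCl. In striatum it was 0.0432, 0.0330, 0.0141 and 0.0283 with vehicle and 0, 0.0151 and 0 with KCl, and in cortex 0.118, 0.0226 and 0.0486 with vehicle and 0.0176, 0.0895 and 0.0359 with KCl. Treatments overlapped in every region. The KCl change was 0.68 in hippocampus (SE 0.362, adjusted p = 0.459), -0.53 in striatum (SE 0.211, adjusted p = 0.258) and -0.19 in cortex (SE 0.386, adjusted p = 0.905), none of which passed, while the gene rose in all 3 regions. Its average of 0.0504 CPKM was just above the filter, and without the hippocampus KCl libraries, its highest group, it was 0.0387. Its levels by region are therefore given as values only.

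Around Nr4a3, with the most TAPEs of the 3, 0 of the 5 tested passed for KCl in any region or over all libraries by either method. At an unadjusted p under 0.05 there were 2 in striatum and 1 over all libraries. Of the 2 in striatum, Nr4a3-08 fell to 0.0464 CPKM without striatum KCl, under the filter, so its p supports nothing here. Nr4a3-01 (chr5:63738144-63740373), nearest to the start, held 79 reads and was not tested. Its reads were in cortex (16 with KCl, 17 with vehicle) and hippocampus (23 and 18), with 3 over the striatum KCl and 2 over the striatum vehicle libraries. Its CPKM was 0 in 3 of the 4 striatum vehicle libraries and in 2 of the 3 striatum KCl libraries, while the gene reached 503 to 559.5 RPM in striatum KCl.

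Nr4a3-03 (chr5:63681888-63683689, 99013 bp before the start, 185 reads) had the highest r of this locus. In striatum its CPKM was 0.0879, 0.0224, 0.0958 and 0.0863 with vehicle and 0.251, 0.184 and 0.106 with KCl. In hippocampus it was 0.167, 0.0765 and 0.0804 with vehicle and 0.223, 0.0685 and 0.102 with KCl, and in cortex 0.0534, 0.0383 and 0.0330 with vehicle and 0.0957, 0.0560 and 0 with KCl. Striatum KCl lay above striatum vehicle without overlap, but the change of 0.91 did not pass (SE 0.343, adjusted p = 0.226). Changes of 0.15 in hippocampus (adjusted p = 0.888) and 0.01 in cortex (adjusted p = 0.995) did not pass either.

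Region dependence of level, pooled over treatments, passed for 3 of the 11 TAPEs against 48.8% of all tested TAPEs. One is Nr4a2-04, which reached the filter through the group where it is high, so that its call (adjusted p = 0.0146) supports nothing here. The others are Nr4a3-03 (adjusted p = 0.0305) and Nr4a3-10 (chr5:63596805-63598908, 191 reads, adjusted p = 0.0377). Nr4a3-03 was higher in striatum than in cortex by 0.77 (SE 0.283, adjusted p = 0.0358). Nr4a3-10 was lower in striatum than in hippocampus, by a log2 difference of -0.63 (SE 0.239, adjusted p = 0.0331), with vehicle means of 0.0827 ± 0.0226 CPKM in striatum (SD, n = 4) and 0.112 ± 0.00997 in hippocampus (SD, n = 3). The call of Nr4a3-03 was lost without cortex vehicle 2 (adjusted p = 0.0549), cortex vehicle 3 (0.0604) or cortex KCl 3 (0.123). The call of Nr4a3-10 was lost without cortex vehicle 3 (adjusted p = 0.0565), cortex KCl 2 (0.0574), hippocampus KCl 1 (0.114), hippocampus KCl 2 (0.0520), hippocampus KCl 3 (0.0550), hippocampus vehicle 1 (0.0523) or hippocampus vehicle 2 (0.0626).

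The KCl response of the loci was compared within libraries, as the log2 ratio of the nearest tested TAPEs, by exact two-sided permutation of treatment within regions (14000 arrangements). The response of Nr4a1-01 exceeded that of Nr4a3-03 by 0.69 (exact p = 0.022, adjusted p = 0.033). The adjustment runs over 3 pairs, those with Nr4a2-04 included. Nr4a2-04 reached the filter through hippocampus KCl, a group compared here, so the pairs with it are given as values only. The difference of Nr4a1-01 from Nr4a2-04 was 1.06, and that of Nr4a2-04 from Nr4a3-03 was -0.37. By region, the difference of Nr4a1-01 from Nr4a2-04 was 2.50 in striatum, 1.15 in cortex and -0.46 in hippocampus, and that from Nr4a3-03 was 1.06, 0.95 and 0.06. The regions were not tested against each other here, and the hippocampus value with Nr4a2-04 holds the group that took this TAPE past the filter.

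The call of Nr4a1-01 against Nr4a3-03 sits close to the threshold and depends on the processing. It did not pass with a pseudocount of 0.01, where the difference was 0.91 (adjusted p = 0.0657). Nor did it pass with the TAPEs within 100 kb summed, at 0.31 (adjusted p = 0.33). The difference from Nr4a2-04 was 1.55 and 0.64 in these fits and 0.96 to 1.18 without single libraries. Nr4a2-04 fell to 0.0387 CPKM without hippocampus KCl, under the filter, so its pairs support nothing here. The difference from Nr4a3-03 was lost without cortex vehicle 2 (adjusted p = 0.0557), cortex vehicle 3 (0.0651), cortex KCl 3 (0.0551), hippocampus KCl 2 (0.0549), hippocampus KCl 3 (0.0756), hippocampus vehicle 1 (0.0756), striatum vehicle 6 (0.0548) or striatum KCl 7 (0.0698). All of these fits kept the sign of the difference.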

How the data were processed

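The authors trimmed reads with Trim Galore (0.4.5 per the labels), aligned them with STAR to the Rn6 assembly with Ensembl annotation, used SAMtools (1.9), defined TAPEs on merged libraries and counted reads of either strand, duplicates included, with SeqMonk. TAPE values were deposited as RPKM, under the name CPKM. A second set of deposited columns holds a score per TAPE and gene, namely how well their CPKM correlated (Pearson) across all 19 libraries or within a region. Whether intronic reads or strand counted for genes is not given in the sources used here. All coordinates except promoters are on Rn6, and no value column was without a sample (0).

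CPKM times length and library total gave whole reads for 100% of TAPE values (to within 0.001). Gene values were not given directly. From its correlations with TAPEs of known values a profile was solved for each gene, in 16124 of 17715 symbols (91.0%), and all 16124 gave whole reads in all 19 libraries, with a largest distance of 0.0119 from a whole read (0.00174 for the Nr4a genes). In genes with few reads these could be off by a common factor, which leaves fold changes as they are. This step and its limma voom test, over genes with an average of 0.5 RPM or more, were chosen after seeing the data. The planned gene test was the exact permutation of profiles.

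TAPEs averaging 0.05 CPKM or more were tested on log2(CPKM + 0.05) with limma 3.58.1 (trend, two-sided, R 4.3.3) over the whole table, with Benjamini-Hochberg adjustment over all tested TAPEs or genes, and an adjusted p under 0.05 passed. Scripts were tested on simulated data. Named were the TAPE nearest to each gene start, the nearest tested TAPE, that with the highest r, each TAPE that passed a test, and the 5 genes most like each member. The members and gene lists were chosen with earlier results of these data known. Alternatives changed the pseudocount, the filter, centring, the fit and single libraries. Reads are PCR products without molecular identifiers, so they are not independent molecules. One result from the list of partners and co-regulators is not reported here.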

Additional observations from a re-analysis of the deposited data

Results flagged for a closer look

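The KCl effect differed between regions for the reads of all 3 genes, with an adjusted p of 8.35e-06 for Nr4a1, 8.16e-06 for Nr4a2 and 2.48e-05 for Nr4a3 in the limma interaction test. Leaving out any 1 library kept each of them past the threshold, at up to 8.88e-05, 0.000131 and 0.000222.

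In the 4 striatum vehicle libraries, 2 TAPEs had a library apart from the other 3. Nr4a3-01 was at 0.0158 CPKM in striatum vehicle 2, which is 2 reads, and at 0 in the others. Nr4a3-03 was at 0.0224 in striatum vehicle 4, which is 2 reads, and at 0.0863 to 0.0958 in the others. Without striatum vehicle 4 the KCl change of Nr4a3-03 in striatum was 0.67. Such a gap was looked for in 12 groups of 4. With normally distributed values, chance alone gives it in about 1 group in 20. That rate does not hold for values of a few reads, since 0 in all libraries but 1 is always flagged.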

How the results depend on the processing

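Of the 219 alternatives for the reads of the 3 genes, all 219 kept the direction and the call. Counts of members that passed were less stable. In striatum the count of 1 became 2 with a pseudocount of 0.2, where 25 of all 1870 tested TAPEs passed. It was also 2 with median centring (23 of 1870) or with one fit of all 6 groups (25 of 1870). It became 3 with voom on reads (34 of 1870) and 0 with no filter (2 of 27538). When single libraries were left out it was 0 to 1 (0 to 8 of 1870). Over all libraries the count of 3 became 1 with no filter (55 of 27538 TAPEs) and 2 to 4 without single libraries (82 to 146 of 1870). The interaction count of 0 became 1 with a pseudocount of 0.2 (Nr4a1-01, adjusted p = 0.0261), where 7 of 1870 TAPEs passed. The region count of 3 became 6 with a filter of 0.02 or none, where 1823 of 5017 and 2026 of 27538 TAPEs passed. It was 1 with vehicle libraries only (675 of 1870). Without single libraries it was 1 to 3 (852 to 902 of 1870), with 1 without cortex vehicle 3. The cause was not tested, apart from the number of TAPEs tested, which the filter sets.

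Between loci, the difference of Nr4a1 from Nr4a2 was 1.55 with a pseudocount of 0.01 and 0.64 with TAPEs within 100 kb summed, and that from Nr4a3 was 0.91 and 0.31; none of these 4 passed. Without single libraries they ran from 0.96 to 1.18 and from 0.53 to 0.83, and Nr4a2 from Nr4a3 from -0.52 to -0.17. For the named TAPEs, only results with an unadjusted p under 0.05 in the main limma fit were given alternatives. Of these 346 alternatives, 306 kept the call, 34 lost it and 6 gained it. Among those with a direction 0 changed sign, while F-tests have no direction.

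Replicate numbers are shared by vehicle and KCl in cortex and hippocampus, but libraries with the same number did not deviate together: the correlation was -0.233 to 0.114 over genes and -0.0418 to 0.0142 over TAPEs, and over 0.1 in 1 and 0 of 6 pairs. With the replicate block, in cortex and hippocampus only, the count over all libraries fell to 0, where 25 of all 1870 tested TAPEs passed. That of gene profiles fell from 3 to 0 (the smallest p it allows is 0.03125). The loci differed by 0.34, 0.51 and 0.16, the last with the sign reversed. These fits hold fewer libraries and leave out striatum. Depth limits all TAPE results: the median TAPE of the series held 14 reads.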
